A study of Rattus norvegicus with 4 samples.

Results

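The plakins are very large cytolinkers, proteins that tie intermediate filaments, microtubules or actin to each other and to adhesion sites of the membrane. The 6 genes described here were Ppl, Evpl, Dsp, Dst, Macf1 and Plec, found by matching their rat NCBI gene IDs to 2 lists of N6-methyladenosine (m6A) peaks. Ppl was chosen by the difference in its number of peaks between the lists, and the other 5 as its relatives. Peak numbers and lengths between the groups are therefore given as a description. Of the 6 genes, 5 had a listed peak, among 8729 genes with a peak in either list.

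m6A-seq compares RNA fragments bound by an m6A antibody with the input RNA, and peaks are called where the bound fragments are enriched over the input. The RNA came from neonatal cardiac fibroblasts (CFs) of healthy Sprague-Dawley rats, taken within 3 days of birth and transfected for 48 h. The Vector group, labelled WT, received the empty plasmid, and the FTO group received a plasmid with rat cDNA of FTO, an enzyme that removes m6A. Each group had 1 m6A-IP and 1 input library and 1 list of peaks, so no value has a replicate error and no test was made. The Vector list held 21249 peaks and the FTO list 17796. The sequencing depth is unknown.

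Plakins are best known from epithelia and muscle. Periplakin and envoplakin line the cornified envelope of keratinocytes, desmoplakin anchors intermediate filaments to desmosomes, which in heart lie in the intercalated discs of cardiomyocytes, and plectin links intermediate filaments to many partners. Dystonin and Macf1, the spectraplakins, add a rod of spectrin repeats and bind both actin and microtubules.

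Ppl, which encodes periplakin (gene ID 302934), had 1 Vector peak and 12 FTO peaks, while none of its relatives had a difference of that size and direction. Dst, which encodes dystonin (316313), had 29 and 25 peaks. Macf1, the microtubule-actin crosslinking factor (362587), had 14 and 15. Plec, which encodes plectin (64204), had 7 in each list. Dsp, which encodes desmoplakin (306871), had 7 and 5. Evpl, which encodes envoplakin (303687), the partner of periplakin in the cornified envelope, had 0 in both lists. More peaks in the FTO list were thus seen for 2 of the 5 genes with peaks, as many for 1 and fewer for 2. Among all 8729 genes, 21.2% had more peaks in the FTO list, 37.4% as many and 41.4% fewer.

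**Figure D1:**
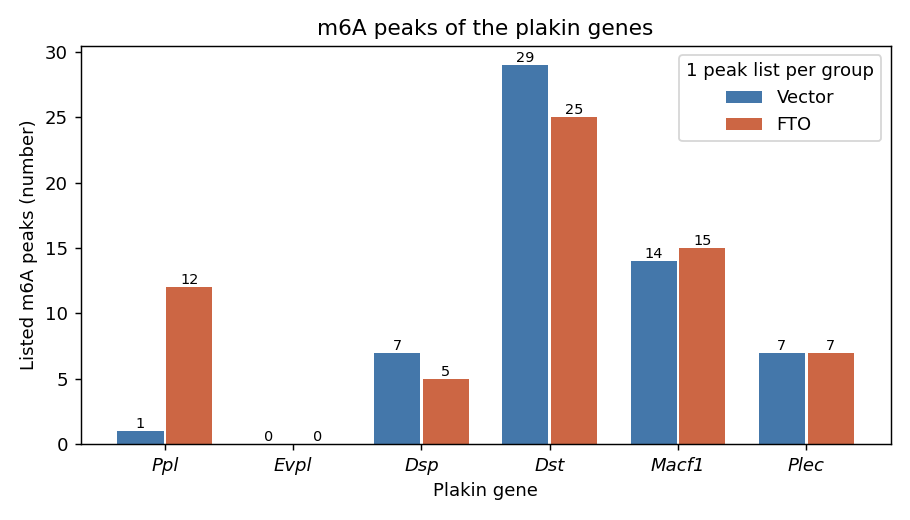
Number of listed m6A peaks (y axis) of each plakin gene (x axis) in the Vector and FTO lists, 1 list per group and no replicates. Ppl has 1 and 12 peaks, the other genes differ by at most 4, and Evpl has none.

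The difference of 11 peaks for Ppl was the largest in that direction, and 1 of the 8729 genes, Ppl itself, reached it (0.0115%). Since Ppl was chosen by this difference, its place among all genes follows from the choice. Of the 3341 genes with 1 Vector peak, 12.5% had more peaks in the FTO list and 14 genes, or 0.419%, had 5 or more. The difference of -4 for Dst turned to 1 among peaks of at least 200 bp and to 0.85 after FTO numbers were scaled to the size of the Vector list. At least 4 fewer peaks were listed for 2.72% of all genes, and the 12 genes with 20 or more Vector peaks, Dst included, had a median difference of -4. The difference of -2 for Dsp was reached by 14.8% of all genes. For the 206 genes with 7 Vector peaks, as Dsp and Plec have, the median difference was -1. For the 14 genes with 14 Vector peaks, as Macf1 has, it was -2.5. Of these, 3 had more FTO peaks, Macf1 among them, and the highest difference was its 1.

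**Figure D2:**
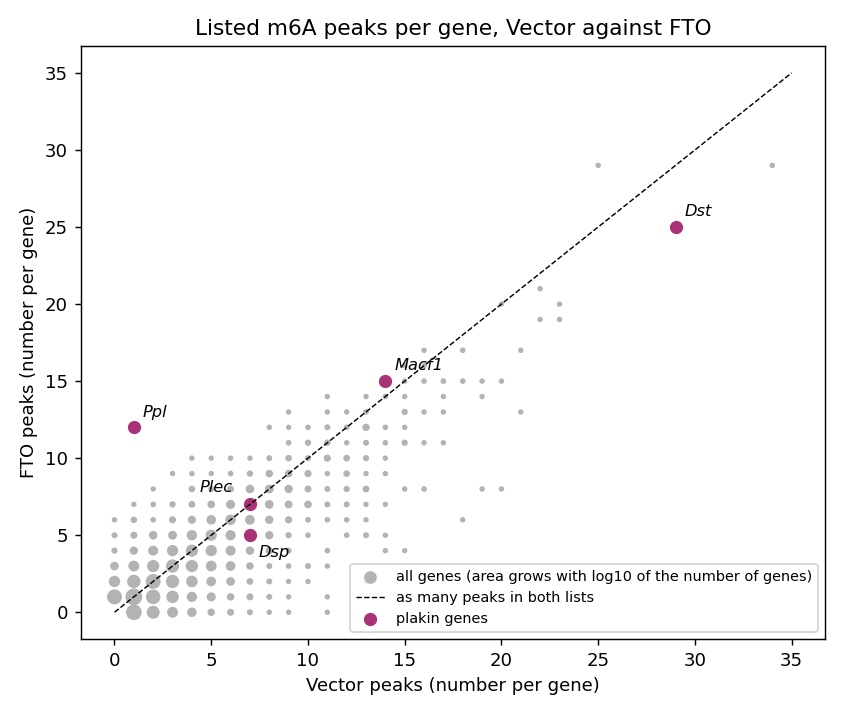
FTO peaks (y axis) against Vector peaks (x axis) per gene, with all 8729 genes in grey and the 5 plakin genes with peaks in purple, and a dashed line where the numbers are equal. Ppl stands apart at 1 and 12, and Dst, Macf1, Plec and Dsp lie near the line among the other genes.

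By number of peaks the spectraplakins stood near the top of both lists. Dst ranked 2 by Vector peaks and 3 by FTO peaks, and Macf1 ranked 48 and 15. Ppl ranked 4554 by Vector peaks and 46 by FTO peaks, ties taking the best rank. The ranks are of peak numbers and were not set against transcript length. They say nothing of how strongly a transcript was methylated, since the height of the peaks was not used here.

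The peaks of Ppl differed in length as well as in number. Its Vector peak was 2335 bp long. In the FTO list its peaks, in the order of their numbers, were 139, 100, 155, 162, 152, 158, 179, 194, 151, 84, 117 and 3603 bp long. The FTO list thus held 1 long peak, 1268 bp longer than that of the Vector list, and 11 short ones with a median of 152 bp. None of the 12 had the length of the Vector peak. Among the 6462 genes with peaks in both lists, the longest peak was at least 1000 bp longer in the FTO list for 2.34%.

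All 11 short Ppl peaks lay between 84 and 194 bp, a range that held 36.5% of all FTO peaks and 40.1% of all Vector peaks. With shorter peaks than 200 bp left out, Ppl had 1 peak in each list. The summed length of its peaks was 2335 bp for Vector and 5194 bp for FTO, of which 1591 bp came from the short peaks. A difference in summed length at least as large in that direction was seen for 0.378% of all genes. It is not independent of the difference in peak number by which Ppl was chosen.

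The lists also give each peak a number, and 35.7% of the Vector numbers and 34.2% of the FTO numbers up to the highest are listed. The listed peaks before and after those of Ppl belong to Nagpa and Ubn1 in both groups. Between them the Vector list had 3 numbers, 1 of them listed for Ppl, and the FTO list had 14 numbers, 12 of them listed for Ppl. In each list 2 numbers in this stretch were not listed.

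Evpl, with no peak in either list, lay between the listed peaks of Fbf1 and Srp68. There, 9 Vector numbers and 5 FTO numbers were not listed, and they were assigned to no gene here. For Dsp, 12 numbers between its listed neighbours were missing from each list. For Plec, 11 Vector numbers and 3 FTO numbers were not listed. For Macf1 they were 18 and 17, and for Dst 40 and 26, but the listed neighbours of both genes differed between the lists.

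Dsp carried 2 long peaks in both lists. The first was 3761 bp for Vector and 3759 bp for FTO, and the second was 2295 bp in both. The shorter peaks were 194, 227, 202, 162 and 129 bp for Vector and 202, 162 and 169 bp for FTO. Peaks of 202 and 162 bp were thus listed in both. The fewer FTO peaks came from peaks of 194, 227 and 129 bp without a partner of equal length against 1 of 169 bp. The summed length was 6970 bp for Vector and 6587 bp for FTO, an order that turned when FTO values were scaled to the size of the Vector list.

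Plec had the longest peak of the family, 7383 bp in both lists, which made up 78.2% of its summed Vector length and 78.5% of its summed FTO length. Only 8 Vector peaks and 9 FTO peaks of any gene were that long, this one included. Peaks of 310, 272, 732 and 140 bp were also found with equal length in both lists. Peaks of 398 and 205 bp were listed for Vector alone, and peaks of 357 and 212 bp for FTO alone. The 7 Plec peaks were assigned to 5 transcripts in each list, 4 of them the same. Peaks on 3 or more transcripts in either list were found for 0.928% of all genes, Plec and Macf1 among them.

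Of the 14 Macf1 peaks in the Vector list, 12 were on 1 transcript, and 14 of the 15 in the FTO list were on the same transcript. Its longest peak, 5319 bp in both lists, was on another transcript. Another transcript carried 1 peak of 351 bp in the Vector list alone. Peaks found with equal length in both lists numbered 11. The Vector list alone had peaks of 195, 171 and 351 bp, and the FTO list alone had peaks of 189, 219, 327 and 177 bp.

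Dst peaks were all on 1 transcript, and 21 of them had equal lengths in both lists. The longest was 5238 bp in both. All 8 Dst peaks without a partner in the Vector list were short, from 78 to 207 bp with a median of 126 bp. The 4 without a partner in the FTO list were 195, 200 and 99 bp and, at the first place in the gene, 1347 bp. Thus the FTO list had fewer Dst peaks but a larger summed length, 13220 bp against 12390 bp. This difference of 830 bp was 1340 bp among peaks of at least 200 bp and 3395.11 bp after FTO values were scaled to the size of the Vector list.

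**Figure D3:**
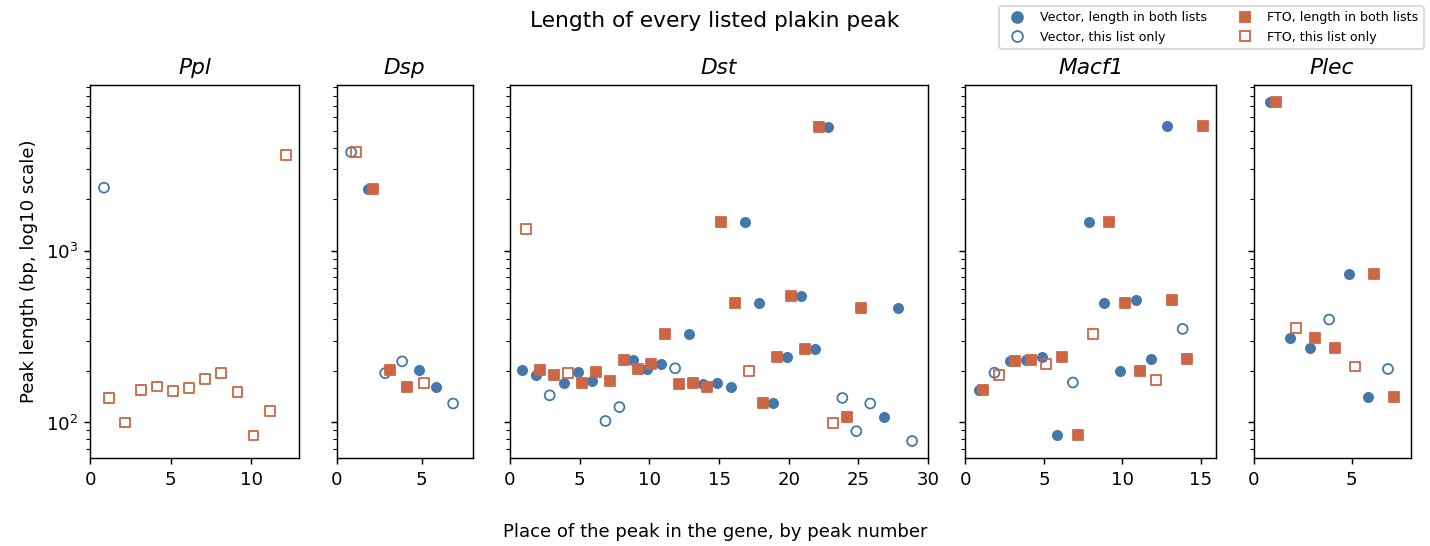
Length in bp (y axis, log10 scale) of every listed peak of the 5 plakin genes with peaks, by its place in the gene (x axis), for Vector (circles) and FTO (squares). Filled symbols are lengths found in both lists and open symbols are found in that list only. All Ppl symbols are open, and the longest peaks of Dst, Macf1 and Plec are filled.

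The longest peak thus had the same length in both lists in Dst, Macf1 and Plec. It was 2 bp shorter in the FTO list in Dsp, and longer in the FTO list in Ppl. An equal longest peak was found in 60.6% of the genes with peaks in both lists. Over the 6 genes, 40 peaks had equal lengths in both lists, 0 of them in Ppl. No partner was found for 31.0% of their Vector peaks and 37.5% of their FTO peaks, against 42.7% and 31.6% over all genes. Without Ppl the shares were 29.8% and 23.1%. Peaks were paired by length alone, so genes with many peaks have more lengths that can match, and this was not removed.

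Dst and Macf1 also shared peak lengths with each other, a feature that played no part in choosing them. In the FTO list, 8 lengths occurred in both genes, namely 189, 200, 219, 232, 242, 327, 496 and 1472 bp. In the Vector list 5 did, namely 171, 232, 242, 496 and 1472 bp. A peak of 1472 bp was found in 3 of the 8729 genes and one of 496 bp in 6, while shorter ones were common, with 171 bp in 98 genes. In both genes and both lists the 496 bp peak directly followed the 1472 bp peak.

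In the FTO list 7 of the 8 shared lengths came in the same order in Dst and Macf1, and the exception was 242 bp. In the Vector list 4 shared lengths did, namely 232, 171, 1472 and 496 bp. The FTO list alone had Macf1 peaks of 189, 219 and 327 bp, and these are lengths that Dst had in both lists. The 200 bp peak that Dst had in the FTO list alone was found for Macf1 in both.

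**Figure D4:**
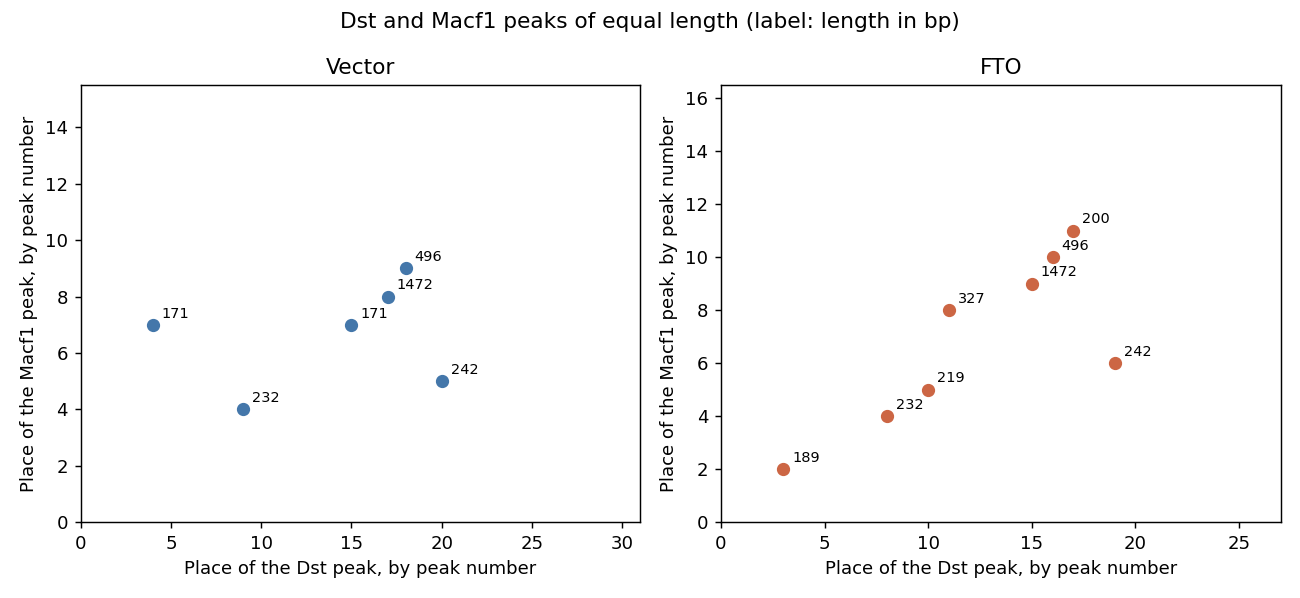
Pairs of a Dst and a Macf1 peak of equal length in the Vector list (left) and the FTO list (right), by the place of the Dst peak (x axis) and of the Macf1 peak (y axis) in the gene, each labelled with its length in bp. In the FTO list 7 of 8 points run upwards together, with 242 bp apart.

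Among the 87153 pairs of genes with 7 or more FTO peaks, Dst and Macf1 shared the most lengths, and 0.00115% of the pairs, this 1 pair, had 8. In the Vector list 15 of 169071 pairs, or 0.00887%, shared 5 or more. Dst and Golga3 were also among these 15 with 5 shared lengths, of which 2 came in the same order. Genes with many peaks have more lengths to share, and this was not removed. Pairs were not ranked by order, in which Myh10 and Myh11 had more, 8 in each list with repeated lengths included.

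The other plakins shared fewer lengths. In the FTO list Ppl had 1 length in common with Dsp and with Dst, 162 bp in both cases, and 1 with Macf1, 155 bp. Plec had 0 in common with any of the others in either list. Dsp and Dst shared 162 and 129 bp as Vector peaks and 162 bp as FTO peaks.

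The proteins that plakins bind, and relatives of these proteins, were described with lists of related genes. How many of all annotated genes had a peak was not counted, so the numbers of list genes with a peak lack a background. Of 14 desmosome partners, 6 had a peak, 2 with more peaks in the FTO list, 1 with as many and 3 with fewer, and the median difference was -0.5 against 0 over all genes. Pkp2, a plakophilin that binds desmoplakin, had 2 Vector peaks and 0 FTO peaks, and Pkp4, another of the family, had 8 and 6. Of 10 hemidesmosome genes, 2 had a peak. Itga6, the integrin subunit of hemidesmosomes, had 5 and 1, and Itga3, a laminin-binding integrin subunit, had 4 and 5. None of the 12 cornified envelope genes, among which periplakin and envoplakin act in skin, had a peak.

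Of 22 intermediate filament genes, 8 had a peak, with more FTO peaks for 2, as many for 2 and fewer for 4, and the median difference was -0.5 against 0 over all genes. The genes that differed most were Lmnb1, with 6 and 2 peaks, and Lmna, with 4 and 1, while Lmnb2, also a nuclear lamin, had 3 and 2. The other genes with a peak, none of them a lamin, were Des and Nefh, each with 0 and 1, Nes with 2 and 1, Synm with 1 and 1 and Sync with 2 and 2. Vim, the main intermediate filament gene of fibroblasts, had no listed peak.

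Of 21 genes for spectrin repeat proteins and their kin, 11 had a peak, with more FTO peaks for 3, as many for 1 and fewer for 7. Their median difference was -1, against 0 over all genes, of which 41.4% had fewer. These 11 genes had 79 Vector peaks together, and the median difference was also -1 for all genes with 7 Vector peaks. Utrn, which encodes the dystrophin relative utrophin, had 11 and 4 peaks. Actn1, an actin-bundling actinin, had 7 and 2. Trio, a guanine nucleotide exchange factor with spectrin repeats, had 16 and 11. Of 22 genes for microtubule proteins, 16 had a peak, with more FTO peaks for 2, as many for 6 and fewer for 8. Apc, which also binds microtubule ends, had 9 and 4 peaks, and Nav2, a neuron navigator, had 12 and 8. The largest difference towards more FTO peaks in any of these 6 lists was 1. Over the 6 lists together, 43 genes had a peak, 23.3% of them with more FTO peaks, 23.3% with as many and 53.5% with fewer, beside 21.2%, 37.4% and 41.4% of all genes. All genes include 835 with 0 Vector peaks, which could only have more FTO peaks, while 138 of the 206 genes with 7 Vector peaks had fewer. The comparisons of these lists with all genes were not matched for the number of Vector peaks.

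Genes with a pattern like that of Ppl were sought by the largest difference towards more FTO peaks, over the 2 lists. After Ppl came 5 genes with a difference of 6. Fto, the transfected gene, had 3 and 9 peaks, and plasmid and endogenous reads could not be told apart here. Glis3, a zinc finger transcription factor, had 1 and 7 peaks, and a peak of 1114 bp was listed in both groups. Itpr3, a calcium channel of the endoplasmic reticulum, had 4 and 10, all of 224 bp or less. Ntn1, which encodes the guidance cue netrin 1, had 0 and 6. Smoc2, which encodes a matricellular calcium-binding protein, had 2 and 8, and its longest peak was 614 bp for Vector and 1317 bp for FTO.

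The labelled cell type was checked with marker genes, as far as peaks can show it. Peaks were listed for 8 of 13 fibroblast markers, with 16 Vector and 13 FTO peaks, and Col1a1, Col1a2 and Col3a1 had none. Cardiomyocyte markers also had peaks, 7 of 12 with 24 Vector and 25 FTO peaks, including Myh6 with 7 and 7, Myh7 with 8 and 5 and Tnnt2 with 4 and 7. Epicardial and epithelial markers, which matter for Ppl, Evpl and Dsp, had peaks for 2 of 11, Aldh1a2 with 2 and 0 and Tbx18 with 2 and 2. Krt7, Krt8, Krt18, Krt19, Cdh1, Epcam, Wt1, Upk3b and Msln had none. Peaks were also listed for 5 of 6 macrophage markers (17 and 9 peaks), 2 of 8 endothelial markers (7 and 6) and 2 of 6 smooth muscle markers (17 and 16). The share of all annotated genes with a peak was not counted, so these marker numbers have no background. A gene without a peak may still be transcribed, transcript levels were not used, and the part of other cell types in the Ppl difference was not tested. In RNA of a whole culture, fewer cells of a type and less RNA per cell cannot be told apart.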

How the data were processed

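CFs were given the empty (Vector) or the FTO plasmid, and m6A-IP and input libraries were made from total RNA. The submitters' processing notes name cutadapt 1.9.3, HISAT2 2.0.4 and build rn6. The peak names carry the prefix MACS, and the version, settings and threshold of the peak caller are not given in the sources used here. For each group the authors deposited a single list that gives the length of each peak in bp, not normalized, with its Ensembl transcript and its NCBI gene ID, which is absent for 248 Vector and 213 FTO peaks. Both lists hold gaps in their peak numbers, with a highest number of 59557 and 52060.

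Gene symbols came from the RefSeq table of GRCr8, which matched 8258 of 8534 gene IDs. Since its build differs from rn6, no coordinates were used, and the neighbours of Evpl were taken from its gene order. Peaks without a gene ID were counted by transcript. Peaks of a gene were paired 1 to 1 between the lists when their lengths were equal. Lengths shared between genes were counted within a list as distinct values, in the order of the peak numbers where order is given. Whether that order runs 5′ to 3′ was not determined. The pairing and ordering were tested on simulated data. No sequence of the peaks was used.

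The members and gene lists were chosen with earlier results of these data known. Named genes were all 6 members, the 2 genes of each related list with the largest difference (ties included) and the 5 genes with the largest difference towards FTO (ties included). Other genes are named as markers, as neighbours, to complete a list, or because their values stood out after they were seen. No test was made, since each group has 1 m6A-IP and 1 input library. Alternatives were minimum lengths of 100 and 200 bp, scaling by list size, repeated peaks counted once, the transcript with most peaks, and other pairing rules. Python 3.11.15, numpy 2.4.6, pandas 2.3.3 and matplotlib 3.10.9 were used.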

Additional observations from a re-analysis of the deposited data

How the results depend on the processing

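Of 103 values under 8 alternatives, 78 kept their direction and stayed within 1.5 times. Peaks of at least 200 bp alone brought the Ppl difference in peaks to 0 and its difference in summed length to 1268 bp, the Dsp difference to -1 and the Dst difference to 1, against -4 with all peaks, and left 12 genes of the 6 related lists with fewer FTO peaks in place of 23. With peaks of at least 100 bp the Ppl difference was 10. With FTO values scaled up by 1.19 to the size of the Vector list, the differences in peaks were 0.85 for Dst, now above 0, -1.03 for Dsp, 3.91 for Macf1 and 1.36 for Plec, the differences in summed length turned to 895.09 bp for Dsp and 1791.07 bp for Plec, and 24 genes of the related lists had more FTO peaks in place of 10. This scaling turns every equal number into more FTO peaks, as for Plec and for 10 of these genes, and over all genes it took those with more FTO peaks from 21.2% to 60.1%. On the transcript with most peaks the differences were 2 for Macf1 and 1 for Plec. Other causes were not tested. There was no replicate to leave out or to pair. How depth bears on the peak numbers is unknown.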

Other observations

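Other related genes also shared several peak lengths within a list, and are named here after their values were seen. Myh10 and Myh11, heavy chains of non-muscle and smooth muscle myosin, shared 7 lengths among Vector peaks and 6 among FTO peaks. Smarca2 and Smarca4, the ATPases of SWI/SNF chromatin remodelling complexes, shared 6 and 4. By distinct lengths these pairs lay below the 8 that Dst and Macf1 shared in the FTO list. Both lay above the 5 that Dst and Macf1 shared in the Vector list. Counted in the same order, repeated lengths included, Myh10 and Myh11 had 8 in each list. Smarca2 and Smarca4 had 7 Vector and 4 FTO lengths in the same order, and Dst and Macf1 had 4 and 7.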
